A study of Mus musculus with 2 samples.

Results

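The nuclear genes for the subunits of respiratory complexes II, III, IV and V, with the electron carrier cytochrome c, were described in the heart of the mouse embryo. Members were all protein-coding genes named Sdha, Sdhb, Sdhc, Sdhd, Cyc1 or Cycs, or with names that start with Uqcr, Atp5, Cox4, Cox5, Cox6, Cox7 or Cox8. The annotation holds 50 such genes and 49 of them were in the expression tables, out of 42462 named genes; the other is a second identifier that also carries the name Atp5o. By complex these are 4 genes of complex II, 9 of complex III, 18 of complex IV, 17 of complex V and the cytochrome c gene Cycs.

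Total RNA was sequenced from 2 pools of hearts of healthy B6NCrl embryos of both sexes at embryonic day 16.5. No treatment or genetic change is given. Both libraries belong to 1 group, so the data give levels and their spread, and no condition could be compared. The pool of replicate 2 came from 41 embryos, the number for replicate 1 is not stated, and both pools carry the same donor identifier. Each pool gave 1 library from 10 ng of RNA longer than 200 nt. A difference between the pools therefore cannot be told apart from a difference in library preparation. Error is given as the SD of 2 values, and the smallest value an exact two-sided test over 2 libraries allows is p = 0.5, and none is given.

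Complex II, succinate dehydrogenase, and complex I pass electrons to ubiquinone, complex III passes them through cytochrome c to complex IV, and complex IV reduces oxygen. Complexes III and IV pump protons across the inner mitochondrial membrane, and complex V, the ATP synthase, makes ATP from their return. All 4 complex II subunits are nuclear-encoded, while complexes III, IV and V also hold subunits from the mitochondrial genome. The heart relies on this pathway more and more as it matures, and several complex IV subunits have one form found in most tissues and another found in heart and skeletal muscle.

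Expressed here means 1 TPM (a length-corrected share of all transcripts) or more in both libraries. By that measure 47 of the 49 genes were expressed, against 59.1% of the 21461 nuclear protein-coding genes. A mean of 100 TPM or more was reached by 44 members (6.16% of all nuclear protein-coding genes) and a mean of 1000 TPM or more by 22 members (0.391% of them). The expressed members had a median of 947 TPM, against 15.9 TPM for all 12676 expressed nuclear protein-coding genes. Together the members held 6.53% of nuclear protein-coding TPM in replicate 1 and 6.41% in replicate 2, a mean of 6.47% ± 0.0822 (SD, n = 2). In bulk tissue a higher share of cells rich in mitochondria and more RNA per cell cannot be told apart.

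The libraries held 37160624 and 40360242 estimated counts, and spike-in RNAs took 1.62% and 3.41% of them. All 6 markers of heart muscle were expressed. Tnnt2 was at 8010 and 8440 TPM, Nkx2-5 at 103 and 104 TPM, and Ryr2, the lowest of them, at 14.7 and 12.5 TPM. All 4 atrial markers were higher in replicate 2 (summed 8336 and 11463 TPM) and all 4 ventricular markers in replicate 1 (16065 and 12569 TPM). Lung markers summed to 915 and 101 TPM, thymus markers to 37.4 and 99.5 TPM, and fast skeletal muscle markers to 201 and 274 TPM. Of the 6 brown fat markers 2 were expressed, the member Cox7a1 and Cidea at 12.7 and 11.1 TPM, and Ucp1 was at 0 in both libraries. Of 4 testis markers 0 were expressed. The part of these differences in the members' values was not tested.

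Complex V had the largest share of nuclear protein-coding TPM, 2.98% ± 0.0516 (SD, n = 2). Its catalytic head is built from the alpha subunit, encoded by Atp5a1, and the beta subunit, encoded by Atp5b, around a central stalk of gamma (Atp5c1), delta (Atp5d) and epsilon (Atp5e). Atp5b was at 5683 TPM in replicate 1 and 5703 TPM in replicate 2 and ranked 8 by mean TPM among nuclear protein-coding genes. It was the highest member in both libraries, with no overlap with the next. Atp5a1 was at 2129 and 2076 TPM, so that Atp5b was 2.67 times Atp5a1 in replicate 1 and 2.75 times in replicate 2. The stalk genes were lower, with Atp5c1 at 1251 and 1193 TPM, Atp5d at 925 and 899.6 TPM, and Atp5e at 883 and 725 TPM.

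The peripheral stalk keeps the head from turning with the rotor. Among its genes Atp5h, for subunit d, was at 1691 and 1558 TPM. Atp5j, for coupling factor 6, was at 1481 and 1338 TPM, and Atp5o, for the OSCP subunit, at 1423 and 1304 TPM. Atp5f1, for subunit b, was lowest of the 4 in both libraries, at 798 and 815 TPM. The small membrane subunits Atp5mpl, Atp5j2, Atp5k and Atp5l spanned means of 1242 to 283 TPM. The lowest of these, Atp5l, was at 1648 and 1511 TPM with its processed copies, described further on, which is above the others. Atp5s, which RefSeq lists as Dmac2l, was far below the rest at 13.5 and 16.6 TPM, the lowest expressed member.

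Subunit c forms the rotor ring and is made from 3 genes, Atp5g1, Atp5g2 and Atp5g3, whose mature proteins are the same. Atp5g3 was at 2849 and 2524 TPM, Atp5g1 at 1928 and 1764 TPM and Atp5g2 at 201 and 153 TPM. The order was the same in both libraries and no value of one gene overlapped with another. Of their summed 4709 ± 379.7 TPM (SD, n = 2), Atp5g3 held 57.0%, Atp5g1 39.2% and Atp5g2 3.74%. With their processed copies, described further on, counted in, the shares were 48.3% ± 1.76, 41.6% ± 1.479 and 10.1% ± 0.285 (SD, n = 2). Their coding sequences are 70.7% to 74.8% identical and share no run of 25 bases. The last 90 coding bases, stop codon included, are shown because they encode the same part of the same mature protein, with capitals at the bases that differ from Atp5g3 (17 of 90 in Atp5g1 and 23 of 90 in Atp5g2).
Atp5g3: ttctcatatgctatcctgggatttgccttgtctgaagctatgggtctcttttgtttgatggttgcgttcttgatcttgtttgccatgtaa
Atp5g1: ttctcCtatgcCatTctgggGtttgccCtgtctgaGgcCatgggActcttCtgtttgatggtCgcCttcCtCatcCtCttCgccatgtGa
Atp5g2: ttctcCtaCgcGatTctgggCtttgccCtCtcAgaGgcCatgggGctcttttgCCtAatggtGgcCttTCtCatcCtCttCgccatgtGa

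**Figure D1:**
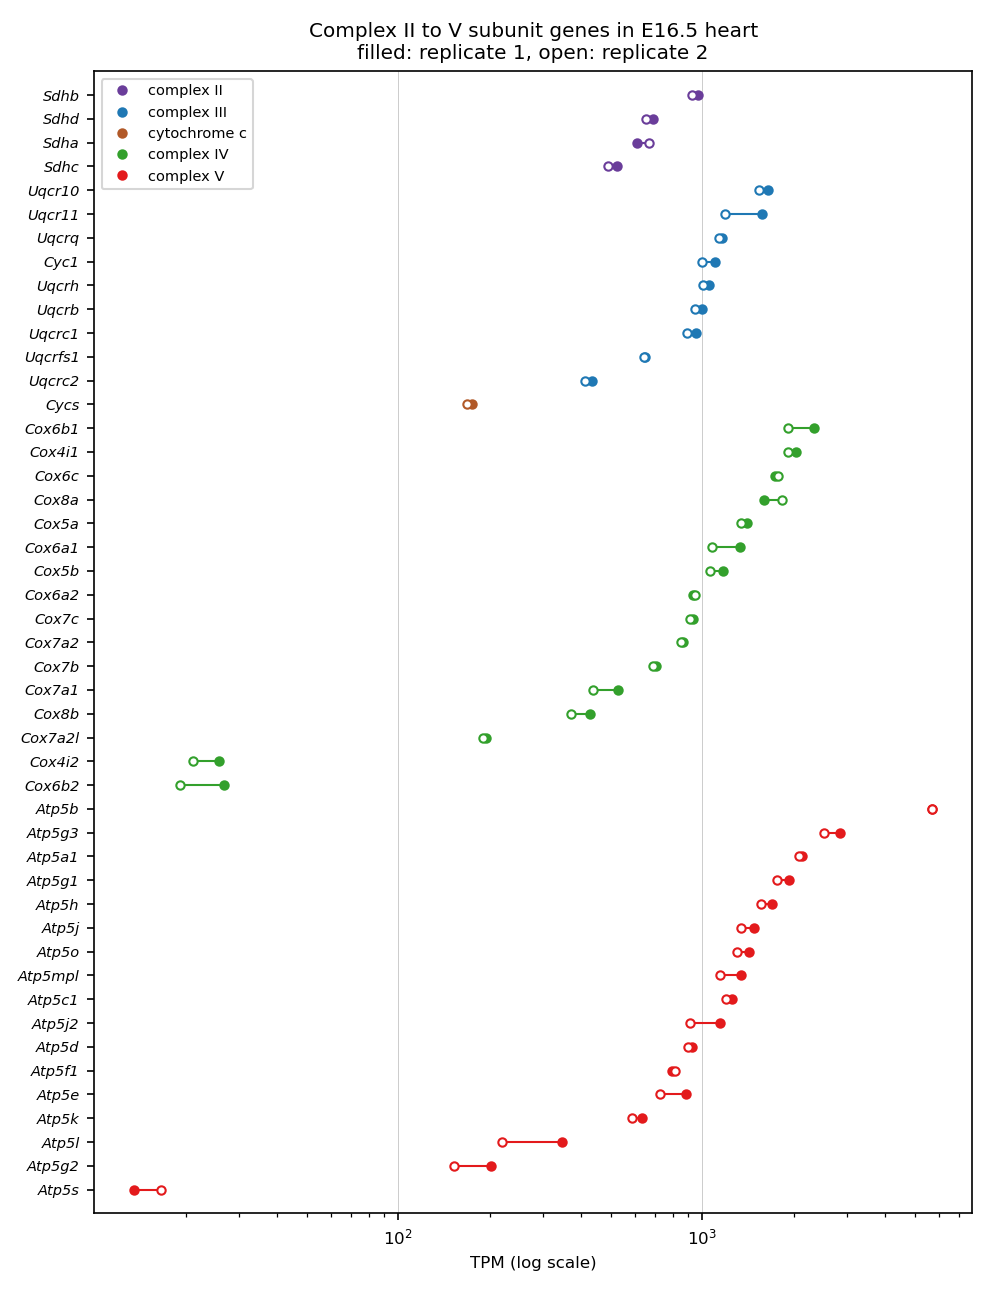
TPM of the 47 expressed subunit genes on a log axis, grouped by complex and ordered by mean within each; filled points are replicate 1, open points replicate 2, and lines join them. Most genes lie near 1000 TPM, Atp5b is highest in both libraries, and Atp5s, Cox6b2 and Cox4i2 lie under 30.

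Complex IV held 1.98% ± 0.00649 of nuclear protein-coding TPM (SD, n = 2), the next largest share. Its highest nuclear genes were Cox6b1 at 2329 and 1917 TPM, Cox4i1 at 2031 and 1919.6 TPM, Cox6c at 1740.2 and 1776 TPM, and Cox8a at 1598 and 1835 TPM. Cox4i1 encodes the largest nuclear subunit of the enzyme, and Cox6b1 a subunit on the side that faces cytochrome c. The 4 genes do not keep 1 order, since Cox6b1 was above Cox4i1 in replicate 1 and level with it in replicate 2. Cox5a, which together with Cox4i1 is built in early during assembly, was at 1404 and 1341 TPM, and Cox5b, a zinc-binding subunit, at 1168 and 1064 TPM. Cox7c was at 933 and 911 TPM and Cox7b at 707 and 688 TPM. With its processed copies, described further on, Cox7c was at 2034 and 2095 TPM, so its place in this order depends on how shared reads were divided.

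Complex III held 1.15% ± 0.0325 of nuclear protein-coding TPM (SD, n = 2) over 9 genes. Cyc1, the cytochrome c1 subunit that hands electrons to cytochrome c, was at 1102 and 999.7 TPM. Uqcrfs1, the Rieske iron-sulfur protein, was lower at 649 and 643 TPM. The 2 core proteins differed, with Uqcrc1 at 956 and 889 TPM and Uqcrc2 at 433 and 411 TPM, the lowest of the complex. The small subunits Uqcr10 and Uqcr11 were highest, at 1651 and 1534 TPM and at 1568 and 1186 TPM. The range from highest to lowest mean was 3.77-fold.

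Complex II, the smallest, held 0.346% ± 0.0081 of nuclear protein-coding TPM (SD, n = 2). Sdhb, the iron-sulfur subunit, was at 967 and 927 TPM, the membrane anchors Sdhd at 688 and 651 TPM and Sdhc at 523 and 491 TPM, and the flavoprotein Sdha at 609 and 669 TPM. Sdhb was above the other 3 in each library and Sdhc below them, while the order of Sdhd and Sdha changed between libraries. The highest was 1.87 times the lowest. This compares with a 92.6-fold range over the expressed genes of complex IV, where Cox6b2 was lowest, and 377-fold over complex V, where Atp5s was lowest. Of the 46 pairs of neighbours in the order of all expressed members, 31 overlapped in their single-library values, so most neighbours in that order do not differ beyond their spread.

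Cycs, the gene of somatic cytochrome c, was at 174 and 169 TPM, under every complex II, III and V member except Atp5s, though its values overlap those of Atp5g2. It was 0.0215% ± 0.000289 of nuclear protein-coding TPM (SD, n = 2). Its main transcript is 3123 nt long, longer than that of most members, and reads of its coding part are shared with a processed copy described further on. Cycs and its copies together were at 1459 and 1182 TPM, so its place below those members depends on how shared reads were divided. Cyct, the testis form, which the name rule does not take in, had 2 and 7 counts.

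Complex IV subunits with tissue forms were compared as pairs, by the log2 ratio of TPM + 0.1. In the 3 pairs with a heart and skeletal muscle form, the form of most tissues was higher in both libraries. Cox6a1 was at 1333 and 1079 TPM against 929 and 947 TPM for the muscle form Cox6a2. Cox7a2 was at 862 and 853 TPM against 528 and 437 TPM for Cox7a1. Cox8a was at 1598 and 1835 TPM against 428 and 370.4 TPM for Cox8b. The muscle form thus held 43.9% ± 4.02 of Cox6a transcripts, 31.4% ± 2.70 of Cox7a transcripts with Cox7a2l counted, and 19.0% ± 3.07 of Cox8 transcripts (SD, n = 2). For Cox6a the log2 ratios of 0.52 and 0.19 averaged 0.35 ± 0.24, which is less than 2 SD from 0. Without length correction that pair turned in replicate 2, with 16825 and 15126 estimated counts for Cox6a1 and 13874 and 15707 for Cox6a2.

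These muscle forms are also expressed in skeletal muscle, and Cox7a1 and Cox8b in brown fat. Fast skeletal markers were higher in replicate 2, with 7 of 8 over 1.5-fold apart, while Cox7a1 and Cox8b were higher in replicate 1 (log2 of replicate 2 over replicate 1 of -0.23 and -0.16). Cox6a2 differed by 0.07. The part of skeletal muscle or brown fat in the values of these forms was not tested.

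Other second forms were low. Cox4i2, a form known for its response to low oxygen and its high level in lung, was at 25.8 and 21.2 TPM, and Cox4i1 was 78.4 and 90.1 times as high. Lung markers were also higher in replicate 1, and their part in the Cox4i2 value was not tested. Cox6b2, known from testis, was at 26.7 and 19.2 TPM, with Cox6b1 at 86.8 and 99.6 times its level. Cox7a2l, a factor that links complexes III and IV, was at 195 and 189.9 TPM, and Cox7a2 was 4.46 times as high on average.

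Cox7b2 and Cox8c, both known from testis, were the 2 members not expressed. Cox7b2 had 1 and 2 counts, or 0.08 and 0.15 TPM. Cox7b was 8837 times as high in replicate 1 (95% counting interval 1586 to 349058) and 4585 times in replicate 2 (1269 to 37864). Cox8c had 0 counts in both, and 3 counts would be 0.298 and 0.268 TPM. Cox8a was at least 5361-fold higher in replicate 1 and at least 6848-fold higher in replicate 2 against that floor of 3 counts per library. Reads carry no molecular identifiers, so these intervals and floors cover counting error only.

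In all 11 pairs, subunit c included, the first gene had the higher TPM in both libraries and the deposited intervals of the 2 genes did not overlap. Those intervals often do not hold the TPM itself. It lay above its own interval for 31 of the 47 expressed members in replicate 1 and for 27 in replicate 2, and below it for no member. Coding sequences of the pairs are 56.4% to 74.8% identical with no shared run of 25 bases, so a read of that length without error does not match the coding part of both.

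**Figure D2:**
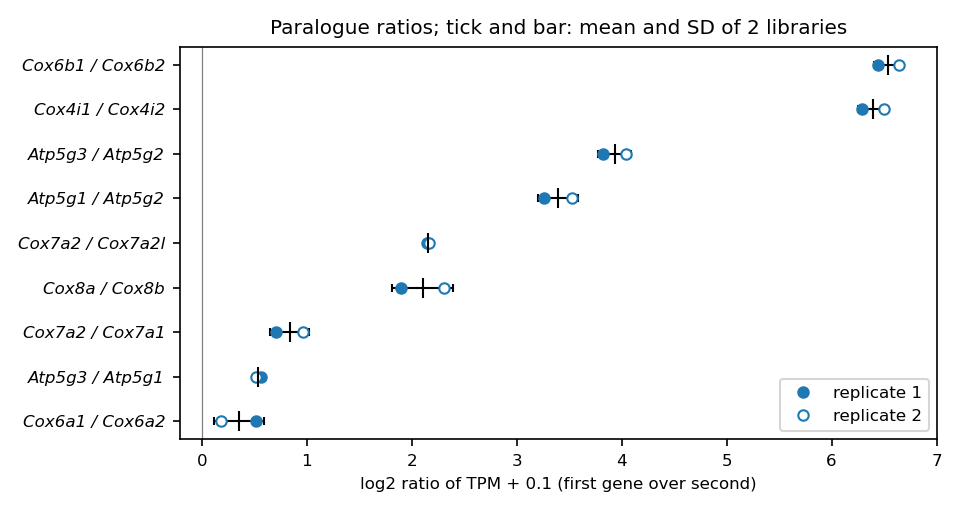
Log2 ratio of TPM + 0.1 for 9 paralogue pairs, first gene over second; filled points are replicate 1, open points replicate 2, and ticks with bars the mean and SD. All ratios are above 0, from 0.35 for Cox6a1 over Cox6a2 to 6.54 for Cox6b1 over Cox6b2; the pairs with Cox7b2 and Cox8c are left out because those genes had 2 counts or fewer.

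Processed pseudogenes are intronless copies of a spliced transcript, and 20 of the members have 49 such copies with 90% or more identity over at least 50% of the coding sequence. Of the copies, 19 were at 1 TPM or more in both libraries, or 38.8%, against 7.24% of all 7795 pseudogenes measured. The latter were not limited to processed pseudogenes or to those close to a highly expressed gene, so these shares are not of like sets. The copies summed to 4517 and 4709 TPM, which is 8.92% of the members' TPM. Nearly all of it belongs to copies of 5 genes. Reads that match a gene and its copy equally well can only be divided by estimate, so the values of these 5 genes are uncertain.

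Atp5l encodes subunit g, a small membrane subunit of the ATP synthase, and lies at chr9:44912557-44920742 (mm10). It was at 346 and 220.2 TPM, while its copy Gm10221 at chr5:24581554-24581862, which matches it at 100% identity, was at 1300 and 1284 TPM. Gene and copies together were at 1648 and 1511 TPM. The copies held 82.2% ± 4.55 of that sum (SD, n = 2), and both libraries put the copy above the gene.

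Cycs at chr6:50562563-50566538 showed the same order, with 174 and 169 TPM against 1283 and 1012 TPM for its copy Gm10108 at chr5:13121448-13121766. Not corrected for length, the gene had more estimated counts, 13469 and 14389 against 7507 and 6575. The aligned 318 bases of gene and copy differ at 2 positions, and both fall in the first 60 coding bases, which are shown with these positions in capitals.
Cycs: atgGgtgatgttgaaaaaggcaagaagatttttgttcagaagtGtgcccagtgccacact
Gm10108: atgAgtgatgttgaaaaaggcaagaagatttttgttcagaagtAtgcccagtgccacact
A read from the other coding bases therefore fits both.

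For Cox7c the copy Gm12338 (100% identity) was at 1093 and 1120.1 TPM beside 933 and 911 TPM for the gene. For Atp5g2 the copy Gm10175 (100% identity) was at 366 and 398 TPM beside 201 and 153 TPM. Both copies were above their genes in each library. For Atp5g1 the copy Gm10039 (99.8% identity) was at 399 and 518 TPM, under the gene's 1928 and 1764 TPM. With copies counted in, Atp5g3 over Atp5g2 fell from a mean log2 ratio of 3.93 to 2.26, and Atp5g1 over Atp5g2 from 3.39 to 2.04, with the order of the 3 genes kept.

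Copies that match less well behaved differently between the libraries. Cox6c2, a copy of Cox6c at 97.0% identity, was at 16.5 and 93.4 TPM, Gm10250 of Atp5h at 13.6 and 88.1 TPM, and Gm10012 of Cox7c at 7.88 and 63.7 TPM. Each was over 4-fold higher in replicate 2, although the genes themselves were not. Among copies with a mean of 1 TPM or more, 15 of 19 under 99% identity were over 1.5-fold higher in replicate 2 (median log2 ratio 2.10), against 1 of 6 at 99% or more (median 0.12). The same held for processed pseudogenes in general: of 732 with a mean of 1 TPM or more, 74.2% were over 1.5-fold higher in replicate 2, with a median log2 ratio of 1.56. The cause was not tested.

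**Figure D3:**
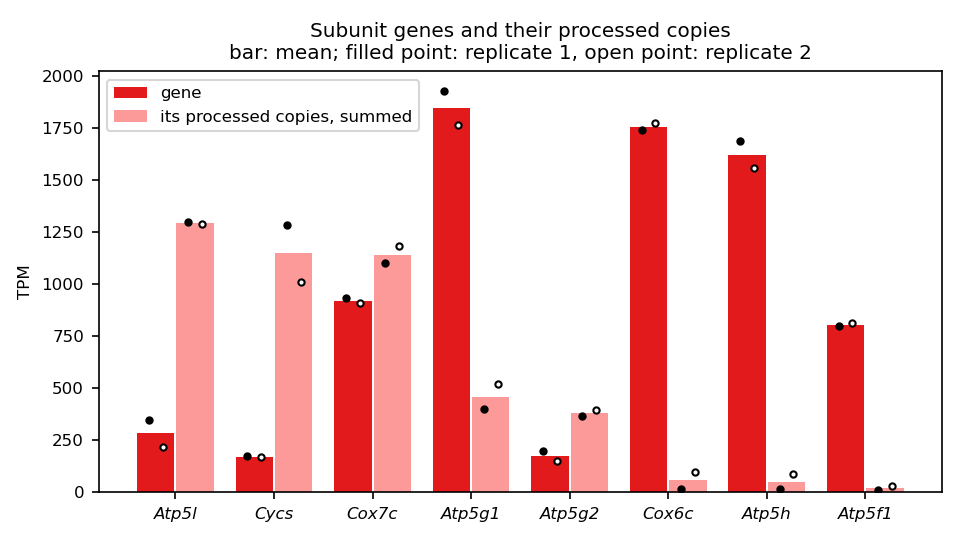
Mean TPM of 8 subunit genes (dark bars) and the sum of their processed copies (light bars); filled points are replicate 1 and open points replicate 2. The copies are above the gene for Atp5l, Cycs, Cox7c and Atp5g2, and below it for Atp5g1, Cox6c, Atp5h and Atp5f1.

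Differences between the 2 pools were small for most members. They were measured as log2 of replicate 2 over replicate 1 from counts scaled to library size and by TMM, a method that sets the bulk of genes level. The median over the 47 expressed members was -0.05, against -0.01 over all expressed nuclear protein-coding genes. Higher in replicate 1 were 35 of 47 (52.9% of all expressed nuclear protein-coding genes), a count of 31 without TMM scaling, with 49.7% of all genes, and of 40 on deposited TPM, with 62.1%. Only Atp5l was over 1.5-fold apart (-0.61), against 5.85% of all genes. With the counts of its copies added it differed by -0.11. At a mean of 100 TPM or more, 33 of 44 members were higher in replicate 1, against 51.4% of such genes.

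The members that were lowest in replicate 2 after Atp5l were Cox6b2 (-0.44), Uqcr11 (-0.36) and Atp5g2 (-0.35), and the highest were Atp5s (0.34) and Cox8a (0.25). With the counts of its copies added, Atp5g2 differed by -0.03. Deposited intervals were apart between the libraries for 35 of 47 members, against 29.7% of expressed genes. Intervals narrow with depth, and at a mean of 100 TPM or more the figures were 32 of 44 members and 56.5% of genes. By complex, 3 of 4 expressed genes were higher in replicate 1 in complex II, 8 of 9 in III, 10 of 16 in IV and 13 of 17 in V. Sdha shows how units can part: its TPM was higher in replicate 2 (609 and 669), but its scaled counts were level (-0.01). The gap lies in Sdha-204, a transcript of 239 nt annotated as a retained intron, which took 0% of the gene's TPM in replicate 1 and 11.5% in replicate 2.

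Most members have short transcripts, and the ratio moved with length. Among genes with a mean of 100 TPM or more, all 8 members under 500 nt were higher in replicate 1 (median -0.17), and other genes of that length had a median of -0.09 (73.3% higher in replicate 1). From 500 to 750 nt, 15 of 19 members were higher in replicate 1 (median -0.08), beside -0.04 for other genes (64.2%). The longer members had medians near 0: 0.01 from 750 to 1000 nt, where 1 of 4 was higher in replicate 1 (59.3% of other genes), and -0.01 from 1000 to 1500 nt, with 5 of 8 (46.0%). At 1500 nt or more the median was -0.01 and 4 of 5 were higher in replicate 1, against 44.2% of other genes. The part of length in the members' median was not tested.

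**Figure D4:**
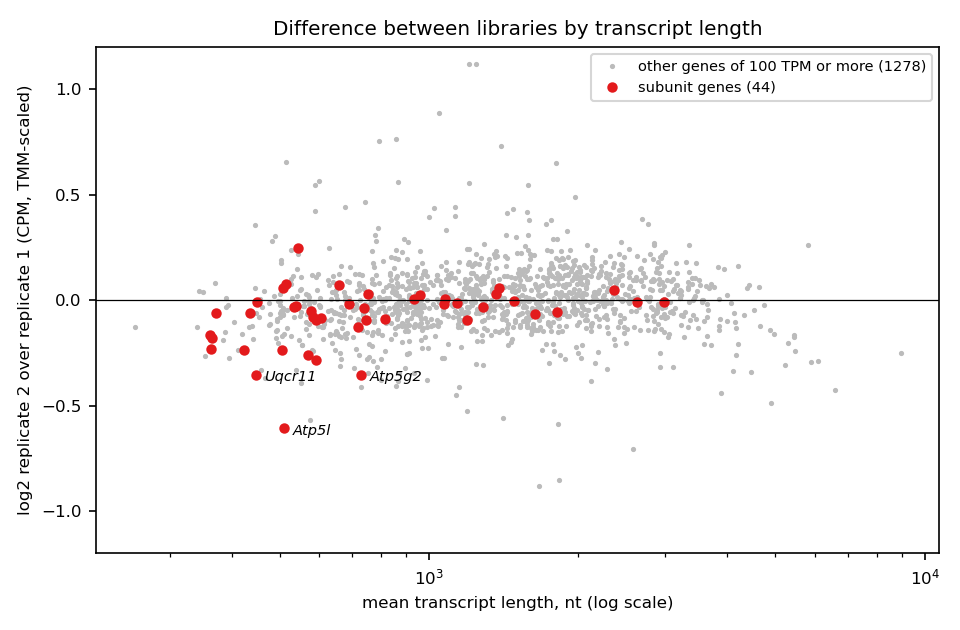
Log2 ratio of replicate 2 over replicate 1 (TMM-scaled CPM) against mean transcript length on a log axis, for 44 subunit genes (red) and 1278 other nuclear protein-coding genes of 100 TPM or more (grey); 1 grey gene lies outside the axis. Short genes of both kinds lie lower, and Atp5l, Uqcr11 and Atp5g2 are the lowest of the subunit genes, without the counts of their copies.

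Transcripts annotated as protein-coding held a median of 99.5% of a member's TPM, against 98.2% over all expressed nuclear protein-coding genes. Under 80% were 6 members, against 23.5% of all genes, and in 3 members the leading transcript was not protein-coding, against 6.80%. In Atp5j 71.9% ± 1.06 (SD, n = 2) lay on Atp5j-208, a retained-intron transcript of 526 nt, at 1076 and 952 TPM. Protein-coding transcripts of Atp5j held 24.9% and 26.4%. In Atp5f1 70.4% ± 3.92 lay on Atp5f1-203, annotated for nonsense-mediated decay, at 540.01 and 596 TPM, and the coding Atp5f1-201 was at 245 and 205 TPM. In Cox5b 54.9% ± 1.70 lay on Cox5b-205, a processed transcript of 362 nt.

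Cox7b was split between the coding Cox7b-201 (53.5% and 46.5%) and the retained-intron Cox7b-203 (43.1% and 46.6%), which were level in replicate 2. In Atp5b the coding Atp5b-201 held 71.1% and 67.4%, at 4039 and 3847 TPM, and the short processed transcript Atp5b-206 held 26.6% and 26.7%. On coding transcripts alone Atp5b was still above the whole-gene TPM of every other member. Uqcrq had 73.2% ± 0.262 on coding transcripts. The alternatives in Atp5j, Cox5b, Atp5b and Uqcrq are 526 nt or shorter, and TPM weights a count on a short transcript more than one on a long transcript.

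Atp5j and Gabpa, which encodes a subunit of the factor GABP, lie head to head on opposite strands and overlap at chr16:84834925-84835625 over 701 nt. Gabpa was at 27.8 and 28.3 TPM. Cox4i1 overlaps Emc8 over 352 nt, and Atp5f1 overlaps Wdr77 over 731 nt, also on opposite strands. Whether counting used the strand is not given in the sources used here, and without it reads in these stretches cannot be told apart.

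**Figure D5:**
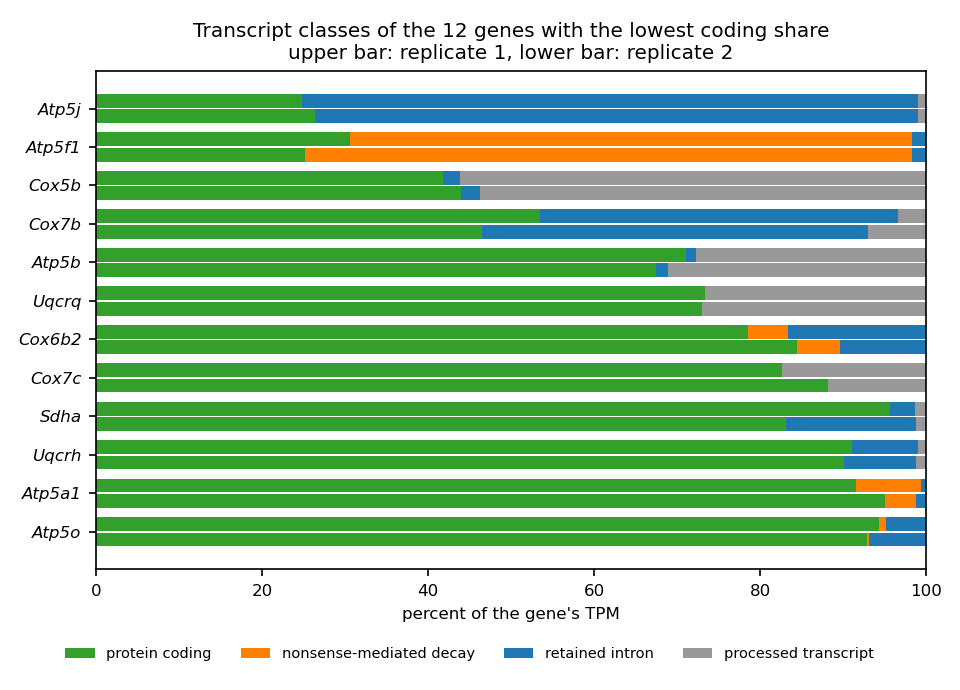
Percent of a gene's TPM on each annotated transcript class for the 12 expressed subunit genes with the lowest protein-coding share; the upper bar of each gene is replicate 1 and the lower bar replicate 2. Atp5j, Atp5f1 and Cox5b have most of their TPM on transcripts that are not protein-coding in both libraries.

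Nuclear respiratory factor 1 (NRF1) and GABP, also called NRF2, are known regulators of nuclear respiratory genes, and their motifs were looked for in the RefSeq windows of 250 bases before to 50 after the start (GRCm38.p6). Of the members, 37 were matched, with 40 windows; Atp5a1, Atp5mpl, Cox4i1, Cox4i2, Cox6a2, Cox6c, Cox8c, Cyc1, Sdhc, Uqcrb, Uqcrc2 and Uqcrq were not analysed here. The NRF1 motif GCGCANGCG, on either strand, was in 32.5% of these windows, against 6.25% of all 32851 windows and 16.0% of the windows of other genes with a mean of 100 TPM or more. The GABP motif CCGGAAG, on either strand, was in 30% of them, against 8.86% and 19.6%. On the gene strand alone the GABP motif was in 7.5% of the members' windows, above the 4.77% of all windows and below the 11.9% of genes with a mean of 100 TPM or more. Both were in the windows of Atp5h, Atp5k, Atp5l, Cox6a1, Sdhd and Uqcr11.

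Other motifs were rarer in the members' windows. The YY1 motif AAGATGGCG and the ERR motif TNAAGGTCA were each in 5% of windows (2 windows each), against 1.40% and 1.28% of all windows and 3.73% and 0.837% of those of genes with a mean of 100 TPM or more. The MEF2 motif CTAAAAATA was in 0 of 40, against 0.517% and 0.304%. The TATA box letters TATAAA were in 7.5%, against 13.6% and 9.74%. All were read on both strands; the letters of these motifs hold no other in full. A match is a description of the letters only.

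The 250 bases before the start are shown for Cox6a1, with both motifs, for Cycs, with the NRF1 motif alone, and for Uqcr11, where the GABP motif lies in the stretch shown. They read 5′ to 3′ on the gene's strand, with matches on either strand in capitals. The positions are chr5:115348959-115349208, chr6:50566570-50566819 and chr10:80406822-80407071 (GRCm38.p6), all on the minus strand.
Cox6a1: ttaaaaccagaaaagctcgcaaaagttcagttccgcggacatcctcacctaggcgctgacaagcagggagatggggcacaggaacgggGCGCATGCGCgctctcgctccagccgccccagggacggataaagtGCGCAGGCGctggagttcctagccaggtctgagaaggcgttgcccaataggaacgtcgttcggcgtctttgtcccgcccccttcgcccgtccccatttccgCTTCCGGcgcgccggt
Cycs: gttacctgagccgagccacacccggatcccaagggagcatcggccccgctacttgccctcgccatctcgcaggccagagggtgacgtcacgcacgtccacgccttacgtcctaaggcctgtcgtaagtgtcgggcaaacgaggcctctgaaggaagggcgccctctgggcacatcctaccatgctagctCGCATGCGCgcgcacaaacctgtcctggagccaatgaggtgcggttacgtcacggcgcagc
Uqcr11: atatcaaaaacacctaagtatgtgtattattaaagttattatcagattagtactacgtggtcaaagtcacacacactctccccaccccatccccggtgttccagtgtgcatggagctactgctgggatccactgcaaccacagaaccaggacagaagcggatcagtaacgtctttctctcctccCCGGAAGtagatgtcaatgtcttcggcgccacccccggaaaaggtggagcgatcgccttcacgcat

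The mitochondrial genome encodes the partners of these subunits, and their genes were high: mt-Atp6, for subunit a of the ATP synthase, was at 12099.6 and 12979 TPM, and mt-Co1, the catalytic subunit of complex IV, at 5169 and 5528 TPM. By scaled counts all 6 such genes were higher in replicate 2, while most nuclear members were higher in replicate 1. By TPM mt-Co2 was slightly lower in replicate 2 (2540 and 2522 TPM), and the summed TPM of the 6 genes was 34607 and 37914. For complex I, 36 of 36 nuclear subunit genes were expressed with a median of 495 TPM, and 27 of 36 were higher in replicate 1 by scaled counts. The 49 members had a median of 938 TPM, complex II 654, complex III 1029, complex IV 889.9 and complex V 1222 TPM.

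By their medians, assembly factors were far lower than the subunits. All 4 measured for complex II, 6 for complex III, 26 for complex IV and 6 for complex V, regulators included, were expressed, with medians of 16.7, 35.3, 38.6 and 94.0 TPM. The copper chaperone Cox17 was at 218 and 203 TPM. The highest in the complex V list were Usmg5, itself a small ATP synthase subunit with a name outside the rule, at 2085 and 1852 TPM, and Atpif1, the inhibitor of ATP hydrolysis, at 1096 and 1241 TPM. Ndufa4, a complex IV subunit that carries a complex I name, was at 1408 and 1234 TPM. In the 4 assembly lists no gene was over 1.5-fold apart between the libraries by scaled counts. By TPM Lyrm7, of the complex III list, was further apart, at 11.5 and 19.2 TPM.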

How the data were processed

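RNA sequencing of 2 heart libraries (1 group) was used. Per the file headers, the authors' tables of genes and transcripts hold estimated counts (not normalized), TPM and credibility intervals of TPM, treated as a signal with bounds, and deposited transcript tables give percent of gene TPM. Build mm10 and annotation M4 are per the file headers; the aligner is not given in the sources used here. Effective lengths were 99 bases under lengths. Names, classes and coordinates came from GENCODE M21 (GRCm38) by identifier. TMM factors (edgeR 4.0.16; 0.995 and 1.00) used counts rounded to whole numbers, over 17056 genes with 10 or more counts in both libraries; 0.5 was added to each count for log2 ratios and 0.1 to TPM in gene pairs. The ratio formula with TMM scaling was tried on simulated counts with known fold changes, apart from the code that gave the reported ratios. Copies were found with BLAST 2.17.0. No protein table was given, so coding sequences replaced the planned protein identities. Every member may be named; from other lists up to 3 genes of highest TPM, those near 0, and the 8 highest copies; others named were chosen after their values were seen. Members and lists were chosen with earlier results of these data known.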

Additional observations from a re-analysis of the deposited data

How the results depend on the processing

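No paired analysis was possible because there is only 1 group. Alternatives were posterior mean values, CPM without length correction, coding transcripts only, other thresholds, filters and scalings, and each library alone; addition of copies, 99% identity and length classes were chosen after seeing the data. Of 89 alternative values for the main results 61 stayed within 1 SD of the libraries, or within 1.5 times for counts. For the median difference between pools the bound was the spread over all expressed nuclear protein-coding genes. For the coding share it was at least the median SD of a member. The median difference between pools kept its sign in each alternative run for it, while levels, shares and counts cannot change sign. A single library always lies within 1 SD of the mean of 2, so each library alone is a weak check. The median level of 938 TPM became 399 CPM, 1174 TPM when scaled to nuclear protein-coding genes and 1030.0 TPM with copies. The shares of complexes II, III, IV, V, cytochrome c and all members became 0.308%, 0.514%, 0.635%, 1.78%, 0.0398% and 3.28% by CPM, and 0.384%, 1.24%, 2.09%, 2.87%, 0.0232% and 6.61% on coding transcripts. With copies they became 2.12% for complex IV, 3.24% for V, 0.164% for cytochrome c and 7.004% for all members, and with posterior means 1.96% for complex IV. Members over the fold threshold numbered 5 at the lowest fold tried, 0 at 2-fold, 2 with no filter and 0 with copies. Copies summed to 5.88 TPM by name alone and 4389 TPM at 99% identity. On the gene strand alone the NRF1 motif was in 8 windows in place of 13 (20% of member windows, against 10.8% of those of genes with a mean of 100 TPM or more) and the GABP motif in 3 in place of 12 (7.5% against 11.9%, so below those genes). The first gene was higher in both libraries in 10 of 11 pairs by CPM and in 11 under the other alternatives run; by CPM the mean log2 ratio of Cox6a1 over Cox6a2 was 0.11 and Cox6a2 was higher in replicate 2.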
